A study of Homo sapiens with 16 samples.

Results

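RIGI, IFIH1, DHX58, MAVS, TLR3, STING1, CGAS, EIF2AK2 and ZBP1 encode proteins with which a cell detects RNA or DNA that is foreign or out of place, or relays that detection. The 9 genes were chosen by their symbols, with earlier results of these data known, among the 35993 genes of the count table. RIGI stands there under its older symbol DDX58. All 9 passed the filter on low counts that kept 21297 genes for testing. ZBP1 passed it only through control libraries of J82 and TCCSUP, the groups in which it was counted in both libraries. The study sequenced RNA of 4 established bladder cancer lines of human origin (253J, J82, RT112, TCCSUP), whose genotype the labels give as WT. Cells of each line were given CM-1758, an inhibitor of histone deacetylases, for 48 h, or 0.01% DMSO as the vehicle control. The dose was the IC50 found for the line, so the concentration differed between the lines, and TCCSUP was grown in EMEM medium and the other lines in DMEM. Each of the 8 groups held 2 libraries, described in the study's methods as independent biological replicates, and 16 libraries were sequenced in all.

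Library totals lay between 22506431 and 32537104 counts, with a median of 29363076 in the control libraries and 23590242 in the treated ones. Levels are given as CPM, counts scaled to library sizes after TMM normalization, on which scale 3 counts in a library were worth 0.0981 to 0.119. Among 14 markers of epithelial and urothelial cells, KRT7, KRT8, KRT18, KRT19, EPCAM, CDH1 and PPARG had counts in all 16 libraries, and UPK3A, a uroplakin of the terminally differentiated urothelium, had 0 counts in 14. The markers of this list summed to between 515 and 8102 CPM in a library, and 12 markers of immune cells to between 0.392 and 23.7 CPM. Of these 12, the B cell marker MS4A1 was at 0 in all 16 libraries and the T cell marker CD3E in 13. Others were counted in most libraries, with CD14 and ITGAM at 0 in 2, and PTPRC and CSF1R in 4. Their highest levels were 11.7 CPM for CD14, 2.90 for ITGAM, 10.5 for PTPRC and 9.995 for CSF1R. The epithelial markers summed to 1327 and 1450 CPM in the control libraries of TCCSUP and to 515 and 598 CPM in its treated ones. In 253J they summed to 3187 and 4338 CPM against 1878 and 2370 CPM, and in RT112 to 6901 and 7083 CPM against 5926 and 6722 CPM. The groups overlapped in J82 alone. By single genes at an adjusted p under 0.05 in edgeR's test, 4 of the 14 fell and 5 rose in TCCSUP, 3 and 4 in 253J, 3 and 2 in RT112, and 1 and 4 in J82. Over all tested genes, 18.5% to 22.4% fell and 24.0% to 32.0% rose. The immune markers were at 0.392 and 0.915 CPM in the control libraries of RT112 and at 6.14 and 7.04 CPM in its treated ones. They summed higher with CM-1758 in the other lines too, without overlap. The sums were 2.39 and 1.915 CPM against 3.92 and 6.07 CPM in 253J, and 4.67 and 2.945 CPM against 6.34 and 5.62 CPM in J82. In TCCSUP they were 21.41 and 21.79 CPM against 23.66 and 22.9 CPM. The part of these shifts in the results was not tested. In RNA from whole cultures, fewer cells with a transcript and less of it in each cell cannot be told apart.

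RIG-I, the product of RIGI, and MDA5, the product of IFIH1, are helicases that bind double-stranded RNA in the cytosol and signal through MAVS, an adaptor on the outer membrane of mitochondria. LGP2, the product of DHX58, is their relative without the signalling domains and modulates both. TLR3 also detects double-stranded RNA, but from inside endosomes, and so is not a cytosolic receptor in the strict sense. The enzyme cGAS makes a cyclic dinucleotide when it meets DNA, and STING1 on the endoplasmic reticulum receives it. PKR, the product of EIF2AK2, is a kinase that halts translation when it binds double-stranded RNA, and ZBP1 binds nucleic acids in the left-handed Z form and can start necroptosis. These pathways lead to the production of interferon, and interferon in turn raises the transcription of many of the sensors through transcription factors such as STAT2 and IRF9, which act at an element called the ISRE.

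Promoter sequence was found for 5 of the 9 genes, RIGI, IFIH1, MAVS, TLR3 and EIF2AK2, in RefSeq's annotation of GRCh38.p14, a later build than the GRCh37 named in the submitters' processing notes. DHX58, STING1, CGAS and ZBP1 are named only. The 250 bases before each start were searched on both strands for the core of the ISRE, written GAAANNGAA, and for the STAT dimer site GAS, written TTCNNNGAA. RIGI, IFIH1 and TLR3 are shown because RIGI and IFIH1 were the genes that rose in RT112 and TLR3 moved opposite to most others in TCCSUP, and because 2 of the 3 hold such letters. Each sequence covers the 180 bases before the start, 5′ to 3′ on the strand of the gene, with the matches in capitals.

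RIGI (chr9:32526197-32526376, minus strand): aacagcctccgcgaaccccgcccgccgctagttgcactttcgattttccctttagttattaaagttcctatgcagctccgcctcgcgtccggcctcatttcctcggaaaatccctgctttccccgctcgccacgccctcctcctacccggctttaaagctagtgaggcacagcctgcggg
IFIH1 (chr2:162318685-162318864, minus strand): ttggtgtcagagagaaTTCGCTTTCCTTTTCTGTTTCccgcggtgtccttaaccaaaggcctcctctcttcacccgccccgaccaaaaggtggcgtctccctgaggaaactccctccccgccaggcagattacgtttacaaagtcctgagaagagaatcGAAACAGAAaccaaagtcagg
TLR3 (chr4:186068976-186069155, plus strand): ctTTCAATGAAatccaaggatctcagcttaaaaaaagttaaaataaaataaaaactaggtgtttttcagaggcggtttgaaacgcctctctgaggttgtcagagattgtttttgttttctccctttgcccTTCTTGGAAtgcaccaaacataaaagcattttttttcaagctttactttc

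The promoter of IFIH1 held 4 matches to the ISRE core, whose first bases lay 164, 158, 152 and 21 bases before the start, and the first 3 of them overlap in 1 stretch. None of the 4 other promoters held one in the window, while 6.88% of 35116 promoters of the same length did. The window ended at the start, so an element that spans the start or lies after it was not seen. A promoter without a match may therefore still hold an ISRE. TLR3 held 2 matches to GAS, 178 and 50 bases before the start, against 6.57% of all promoters with at least 1. TLR3 also had the fewest CpG dinucleotides in the 250 bases, 3, against 12 in IFIH1, 22 in RIGI, 22 in EIF2AK2, 28 in MAVS and a median of 11 over all promoters. These matches are descriptions of letters and not of bound sites.

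In control cells, the level of every one of the 9 genes differed among the 4 lines, with adjusted p-values between 2.15e-10 for RIGI and 0.00314 for ZBP1 in an F test of edgeR's quasi-likelihood fit with Benjamini-Hochberg adjustment. This held for 78.8% of all tested genes. ZBP1 passed the filter on low counts only through control libraries of J82 and TCCSUP, so its difference among the lines is no independent result. With DESeq2 over all lines 8 genes differed. Between single pairs of lines, 53.1% of the tested genes differed for 253J against J82, 54.3% for 253J against RT112, 53.1% for 253J against TCCSUP, 52.1% for J82 against RT112, 48.0% for J82 against TCCSUP and 51.5% for RT112 against TCCSUP. J82 had the highest control level of RIGI, IFIH1, DHX58, CGAS and EIF2AK2, with a log2 difference to the next line of 2.66 ± 0.24 (SE) for RIGI, 2.06 ± 0.35 for IFIH1, 1.76 ± 0.33 for DHX58, 1.48 ± 0.23 for CGAS and 0.84 ± 0.20 for EIF2AK2. RT112 had the lowest level of RIGI, IFIH1, DHX58 and CGAS.

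The order of the control levels was J82, TCCSUP, 253J and RT112 for RIGI, and each neighbour differed from the next, the closest pair, TCCSUP and 253J, at an adjusted p of 0.00356. IFIH1 had the same order, but its difference between TCCSUP and 253J did not pass (adjusted p = 0.223). DHX58 was ordered J82, 253J, TCCSUP and RT112, with no difference past the threshold between the last 2 (adjusted p = 0.249). CGAS ran J82, 253J, TCCSUP and RT112, with 253J and TCCSUP not separated (adjusted p = 0.63), and RT112 lay 4.05 ± 0.28 below TCCSUP on the log2 scale.

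The remaining genes followed other orders. EIF2AK2 was highest in J82, and TCCSUP, RT112 and 253J did not differ among themselves past the threshold (adjusted p = 0.107 to 0.478). MAVS was the one gene of this group highest in RT112 by a margin that passed against each other line, followed by J82 and TCCSUP, which were not separated (adjusted p = 0.176), and 253J. STING1 was ordered RT112, TCCSUP and J82 with neighbours not separated (adjusted p = 0.189 and 0.432), and had 0 counts in both 253J control libraries. TLR3 was highest in 253J, with J82 and RT112 not separated (adjusted p = 0.39), and lowest in TCCSUP. ZBP1 was counted in J82 and TCCSUP, which were not separated (adjusted p = 0.403), and had 0 counts in the control libraries of 253J and RT112. TLR3 in 253J and STING1 in RT112 were the genes with their highest level outside J82, together with MAVS in RT112.

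Levels of different genes were compared per kilobase of exon, with exon lengths from the GENCODE annotation of GRCh38. Each length joined the exons of all transcripts of the gene in that annotation, from 1771 bases for STING1 to 11771 for MAVS. Which transcripts these cells use was not tested, and the order of the genes depends on these lengths. In J82 control cells, RIGI had the highest level of the 9, 158 ± 8.28 CPM per kb (SD, n = 2), followed by IFIH1 at 38.8 ± 6.57 and CGAS at 30.4 ± 2.38. In TCCSUP, RIGI also led at 24.9 ± 1.15 CPM per kb, followed by EIF2AK2 at 11.3 ± 0.689. The first places in 253J were RIGI at 13.4 ± 1.22, CGAS at 10.9 ± 3.16 and TLR3 at 10.5 ± 0.566 CPM per kb, which the spread of CGAS does not separate. RT112 was ordered differently, with STING1 at 12.6 ± 0.571, MAVS at 10.1 ± 1.41 and EIF2AK2 at 9.97 ± 0.239 CPM per kb ahead of RIGI at 5.57 ± 0.147, and MAVS and EIF2AK2 within their spread of each other.

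**Figure D1:**
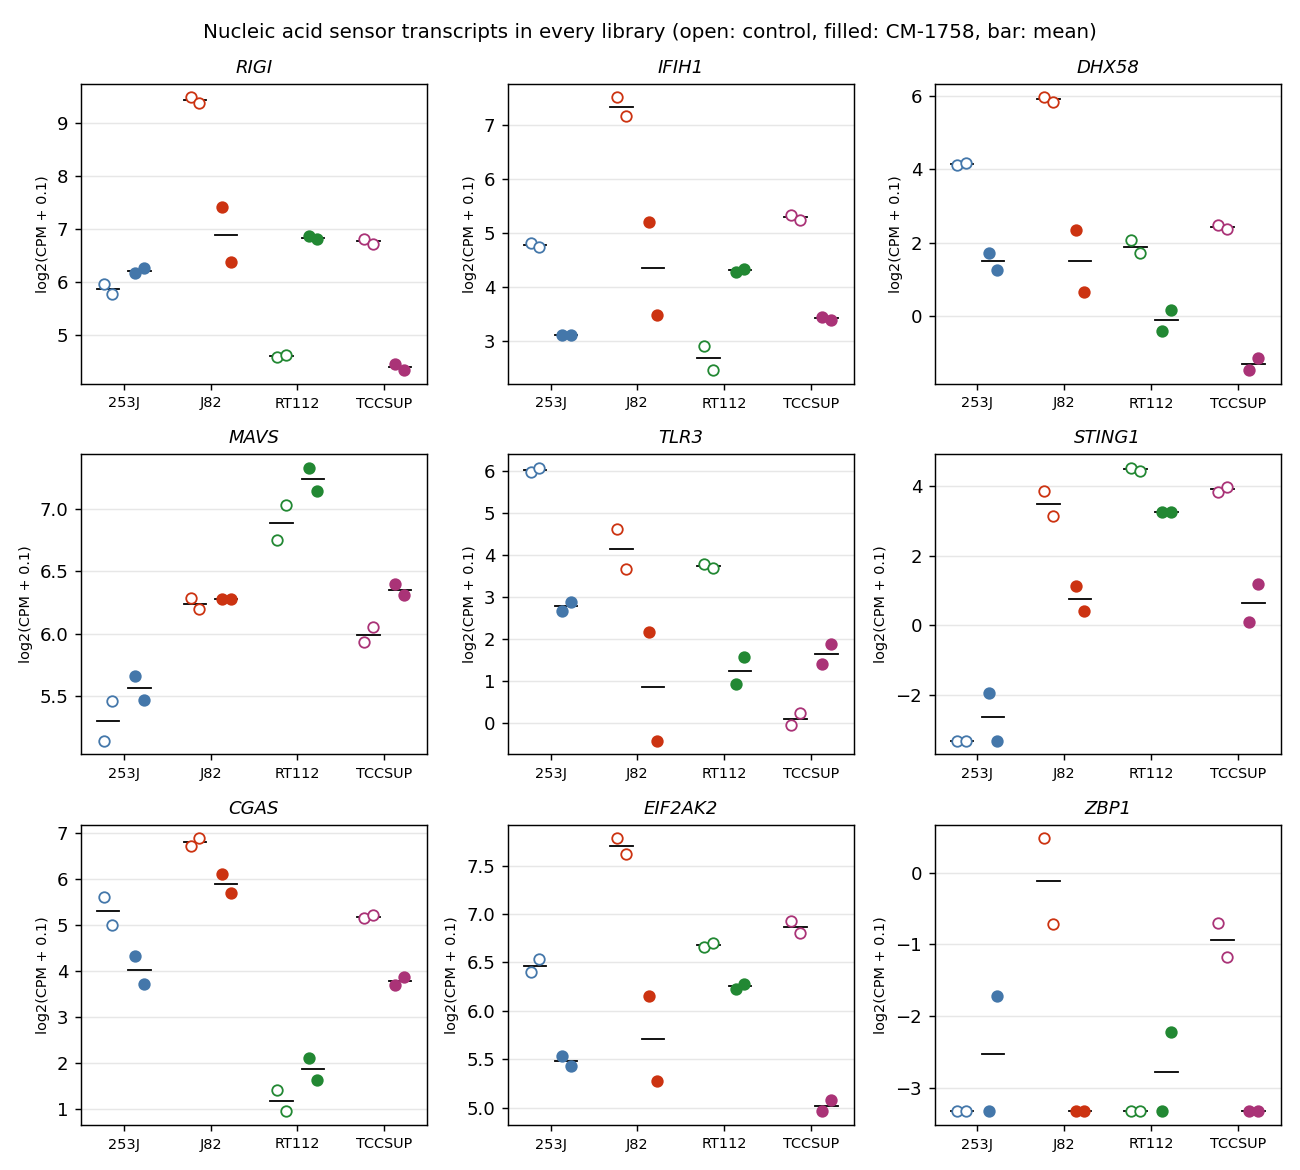
Level of each of the 9 genes in each of the 16 libraries, as log2(CPM + 0.1) on the vertical axis, by cell line on the horizontal axis. Open points are control libraries, filled points are libraries with CM-1758 and bars are the means of 2 libraries. The J82 control libraries of RIGI, at 713 and 662 CPM, stand above all other groups, and DHX58 falls in every line.

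With CM-1758, most of these transcripts fell in J82 and TCCSUP, fewer fell in 253J, and RT112 had changes in both directions. In J82, 8 of the 9 genes fell and 0 rose at an adjusted p under 0.05, against 18.5% of the tested genes that fell and 24.0% that rose, and MAVS did not pass. ZBP1, 1 of the 8, passed the filter only through control libraries of J82 and TCCSUP. Its falls in these 2 lines are therefore no independent result. DESeq2 over all lines did not call ZBP1 and counted 7 falling genes in J82 and 6 in TCCSUP. In TCCSUP, 7 fell and 2 rose, against 22.1% and 32.0% of the tested genes. The 2 that rose, MAVS and TLR3, lost the call when any 1 of the 4 TCCSUP libraries was left out. The fall of ZBP1 lost it when control replicate 1 or either treated library was left out. In 253J, 5 fell and 0 rose, against 22.4% and 28.8%, where STING1 and ZBP1 were at or near 0 counts. In RT112, 3 fell and 2 rose, against 20.2% and 27.4%. The counts of 0 rising genes in J82 and 253J from edgeR were also 0 at an unadjusted p under 0.05 and 0 with DESeq2 over all lines.

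At the stricter limit of the study's methods, an adjusted p under 0.01 and a log2 fold change above 2 or below -2, 2 genes passed in 253J, 3 each in RT112 and TCCSUP, and 6 in J82, against 12.9%, 12.8%, 17.5% and 10.1% of the tested genes. Of the 3 in RT112, RIGI was a rise. The 6 in J82 include ZBP1, and 5 passed there with DESeq2 over all lines. Without treated replicate 1 of RT112, 1 gene passed that limit in RT112. The median log2 fold change was -1.29 in 253J over 7 genes, -2.77 in J82 over 9, -0.04 in RT112 over 8 and -1.89 in TCCSUP over 9, with genes at 0 in control left out and ZBP1 at its bound in J82 and TCCSUP. Over all tested genes the medians were 0.10, 0.05, 0.12 and 0.20. Scaling by library size alone raised the median of all genes by 0.27, 0.15, 0.15 and 0.31 in these lines, so that changes of that size, such as those of MAVS, depend on the scaling.

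The size of the effect differed between the lines for 8 of the 9 genes in an F test of the interaction, which 51.9% of the tested genes passed. MAVS was the exception (adjusted p = 0.466). ZBP1 is among the 8 and passed the filter only through control libraries of J82 and TCCSUP. With DESeq2 over all lines 7 genes passed. Between pairs of lines, the effects differed for 30.0% of the tested genes in 253J against J82, 30.0% in 253J against RT112, 28.6% in 253J against TCCSUP, 22.2% in J82 against RT112, 22.2% in J82 against TCCSUP and 27.5% in RT112 against TCCSUP. In J82, treated replicate 3 lay below treated replicate 1 for 7 of the 9 genes, by up to 6.79-fold for TLR3, and not for MAVS or ZBP1. With both J82 libraries numbered 3 left out, an alternative chosen after seeing the data, 7 genes fell in J82 and the call of CGAS was lost.

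RIGI, the receptor for short and 5′-triphosphate double-stranded RNA, moved in opposite directions. In J82 it stood at 713 and 662 CPM in control and at 169 and 82.9 CPM with CM-1758. In TCCSUP it stood at 112 and 105 CPM in control and at 21.8 and 20.1 CPM with CM-1758. Both treated libraries lay below both controls in these 2 lines, and the log2 fold change was -2.45 ± 0.23 (SE, adjusted p = 1.47e-06) in J82 and -2.37 ± 0.24 (adjusted p = 1.33e-06) in TCCSUP. Their difference, J82 minus TCCSUP, was -0.08 ± 0.32 and did not pass (adjusted p = 0.993). As for every gene here, these SEs rest on a spread shared over the 8 groups. For the lack of overlap between groups, given here gene by gene, no share over all tested genes was computed. With 2 libraries per group it is a description and no support for a change. The treated libraries themselves lay further apart in J82 (126 ± 60.9 CPM, SD) than in TCCSUP (21.0 ± 1.21 CPM). Both falls still passed when edgeR was fitted to each line alone, less clearly for J82 (-2.46, adjusted p = 0.000719) than for TCCSUP (-2.40, adjusted p = 7.74e-09).

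In RT112, RIGI stood at 23.8 and 24.7 CPM in control and rose to 116 and 112 CPM, a log2 fold change of 2.23 ± 0.24 (adjusted p = 3.24e-06). It thereby reached the level of TCCSUP control cells. In 253J the control libraries were at 62.0 and 54.6 CPM and the treated ones at 71.6 and 76.5 CPM. The groups did not overlap in 253J, but the log2 fold change of 0.34 ± 0.23 did not pass (adjusted p = 0.219) unless the libraries were scaled by size alone (0.62, adjusted p = 0.0386). The effect in RT112 lay above that in 253J by 1.88 ± 0.32 (adjusted p = 0.000455), in J82 by 4.68 ± 0.33 (adjusted p = 2.9e-07) and in TCCSUP by 4.60 ± 0.34 (adjusted p = 2.01e-07).

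IFIH1, the receptor for long double-stranded RNA, also rose in RT112, from 7.36 and 5.39 CPM to 19.4 and 20.1 CPM (log2 fold change 1.63 ± 0.37, adjusted p = 0.00218). Unlike RIGI it fell in 253J, from 28.1 and 26.5 CPM to 8.56 and 8.57 CPM (-1.67 ± 0.36, adjusted p = 0.0013). In J82 it fell from 183 and 144 CPM to 37.0 and 11.04 CPM (-2.77 ± 0.36, adjusted p = 2.41e-05). In none of these 3 lines did the groups overlap. TCCSUP went from 40.3 and 37.9 CPM to 10.8 and 10.3 CPM (-1.89 ± 0.36, adjusted p = 0.00048). The falls in 253J, J82 and TCCSUP did not differ from each other past the threshold (adjusted p = 0.114 to 0.865), and each differed from the rise in RT112 (adjusted p at most 0.000229).

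DHX58, which encodes LGP2, fell in all 4 lines. In J82 it went from 62.1 and 57.1 CPM to 4.98 and 1.49 CPM, a log2 fold change of -4.21 ± 0.37 (adjusted p = 7.78e-07). In TCCSUP it went from 5.46 and 5.06 CPM to 0.262 and 0.354 CPM (-4.08 ± 0.51, adjusted p = 1.08e-05), where the treated libraries held 7 and 9 counts. These were the 2 largest fitted falls of the 9 genes where both groups had counts.

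In 253J, DHX58 went from 17.3 and 17.9 CPM to 3.21 and 2.29 CPM (-2.68 ± 0.37, adjusted p = 2.23e-05), and in RT112 from 4.09 and 3.22 CPM to 0.665 and 1.03 CPM (-2.10 ± 0.44, adjusted p = 0.00117). Groups did not overlap in any line. The effect in J82 exceeded those in 253J by 1.53 ± 0.50 (adjusted p = 0.0309) and in RT112 by 2.11 ± 0.58 (adjusted p = 0.0172), while that in TCCSUP was not separated from 253J (adjusted p = 0.137) or RT112 (adjusted p = 0.0555). In RT112, DHX58 fell in the libraries in which RIGI and IFIH1 rose.

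The counts of DHX58 relative to those of RIGI within a library, a comparison chosen after seeing the data and free of any scaling, fell in each line without overlap. In RT112 there were 17.17 and 13.03 counts of DHX58 per 100 counts of RIGI in control and 0.574 and 0.923 with CM-1758, a change in the log2 ratio of -4.36 ± 0.40 (SE of the difference, n = 2 per group). In 253J the ratio went from 27.9 and 32.7 to 4.483 and 3.001 per 100 (-3.04 ± 0.31). RIGI itself rose in the first of these lines and did not pass in the second.

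J82 went from 8.71 and 8.63 DHX58 counts per 100 RIGI counts to 2.94 and 1.80 (-1.91 ± 0.36), and TCCSUP from 4.87 and 4.81 to 1.20 and 1.76 (-1.74 ± 0.28). IFIH1 relative to RIGI showed no such common direction. Its log2 ratio to RIGI changed by -2.02 ± 0.07 in 253J, by -0.58 ± 0.26 in RT112 and by 0.49 ± 0.03 in TCCSUP, and the groups overlapped in J82 (-0.47 ± 0.38). These ratios are descriptions and carry no test.

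**Figure D2:**
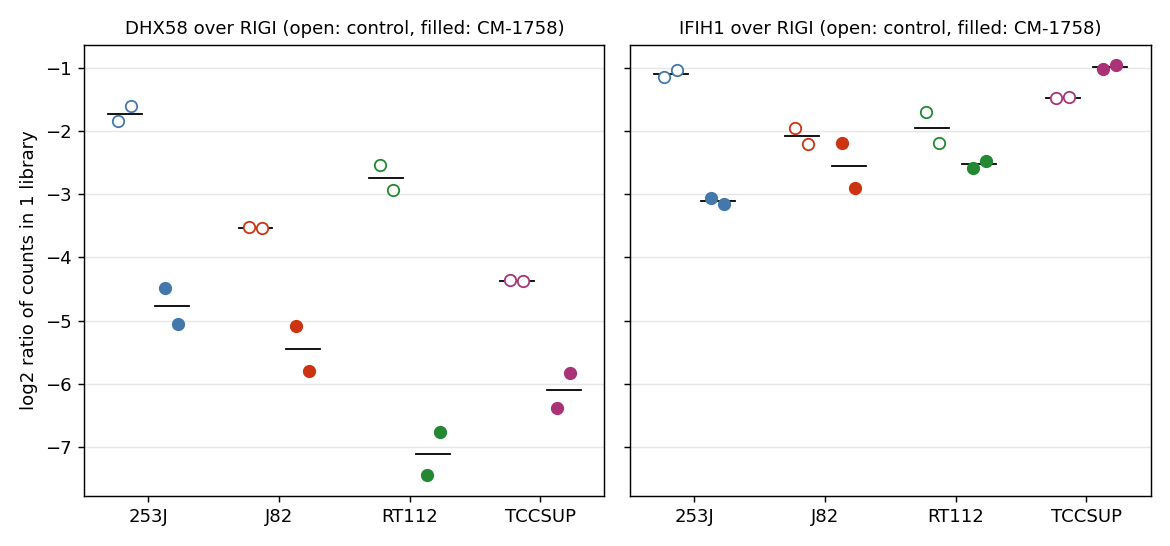
Log2 ratio of DHX58 counts to RIGI counts (left) and of IFIH1 counts to RIGI counts (right) within each library, by cell line, with open points for control, filled points for CM-1758 and bars for means of 2 libraries. DHX58 over RIGI lies lower with CM-1758 in every line, by 1.74 to 4.36 on the log2 scale, while IFIH1 over RIGI rises in TCCSUP and overlaps in J82.

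MAVS, the adaptor that RIG-I and MDA5 share, had the smallest changes with CM-1758 of the 9 genes. Its control libraries were at 35.1 and 43.9 CPM in 253J, 77.9 and 73.3 in J82, 107 and 131 in RT112, and 60.9 and 66.3 in TCCSUP. With CM-1758 they were at 50.5 and 44.1 CPM in 253J, 77.3 and 77.5 in J82, 161 and 142 in RT112, and 84.1 and 79.4 in TCCSUP. Only in J82 did the groups overlap. The log2 fold change was 0.26 ± 0.15 in 253J (adjusted p = 0.156), 0.03 ± 0.14 in J82 (adjusted p = 0.921), 0.35 ± 0.14 in RT112 (adjusted p = 0.0603) and 0.36 ± 0.15 in TCCSUP (adjusted p = 0.0468). The pass in TCCSUP was lost without any 1 of its 4 libraries, with adjusted p-values from 0.0847 to 0.21.

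TLR3, the endosomal receptor, fell in 3 lines. In 253J, where its control level was highest, it went from 63.0 and 68.0 CPM to 6.30 and 7.26 CPM, a log2 fold change of -3.27 ± 0.48 (adjusted p = 4.56e-05). In RT112 it went from 13.8 and 12.8 CPM to 1.80 and 2.86 CPM (-2.51 ± 0.51, adjusted p = 0.000997). The RT112 libraries in which RIGI and IFIH1 rose were low in TLR3.

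In J82 the replicates of TLR3 were far apart, at 24.7 and 12.7 CPM in control and 4.37 and 0.643 CPM with CM-1758 (-2.91 ± 0.51, adjusted p = 0.000318). The groups did not overlap, but DESeq2 on J82 alone gave an adjusted p of 0.0605. TCCSUP was the exception among the lines, since TLR3 was low in control at 0.871 and 1.07 CPM and higher with CM-1758 at 2.55 and 3.58 CPM. That rise, a log2 fold change of 1.65 ± 0.62 (adjusted p = 0.0346), rested on 22 and 28 counts in control and was lost without any 1 TCCSUP library (adjusted p = 0.0514 to 0.155). The effect in TCCSUP differed from those in 253J (adjusted p = 0.000217), J82 (adjusted p = 0.000776) and RT112 (adjusted p = 0.00117), and those 3 did not differ from each other past the threshold (adjusted p = 0.467 to 0.817).

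CGAS, the DNA sensor, fell in the 3 lines in which it was abundant. In 253J it went from 48.5 and 32.0 CPM to 19.9 and 13.1 CPM (log2 fold change -1.29 ± 0.23, adjusted p = 0.000289), and in TCCSUP from 35.6 and 37.0 CPM to 12.9 and 14.5 CPM (-1.41 ± 0.24, adjusted p = 0.00016). In J82 it went from 106 and 119 CPM to 68.7 and 52.1 CPM (-0.89 ± 0.23, adjusted p = 0.00484), and the call was lost without treated replicate 3 (adjusted p = 0.0576). No groups overlapped. RT112, with the lowest level, held 2.55 and 1.83 CPM in control and 4.19 and 3.01 CPM with CM-1758 (0.71 ± 0.30, adjusted p = 0.0605). The effect in RT112 differed from that in each other line (adjusted p = 0.000666 to 0.00599).

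STING1, the receptor of the product of cGAS, fell wherever it was expressed. TCCSUP went from 14.2 and 15.6 CPM to 0.973 and 2.16 CPM (log2 fold change -3.25 ± 0.41, adjusted p = 1.73e-05), and J82 from 14.4 and 8.69 CPM to 2.08 and 1.22 CPM (-2.81 ± 0.40, adjusted p = 8.34e-05), and these 2 falls were not separated (adjusted p = 0.68). The fall in RT112 was smaller, from 23.0 and 21.6 CPM to 9.39 and 9.42 CPM (-1.25 ± 0.36, adjusted p = 0.0107), and differed from those in TCCSUP (adjusted p = 0.0123) and J82 (adjusted p = 0.049). Leaving out either treated library or control replicate 1 of RT112 ended that call, at adjusted p-values of 0.0541 to 0.0549. In 253J, STING1 had 0 counts in both control libraries and 4 and 0 with CM-1758, so no fold is given. CGAS was counted in all 4 of these libraries.

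EIF2AK2, which encodes PKR, was abundant in all 4 lines and fell in 3. J82 went from 220 and 197 CPM to 70.9 and 38.6 CPM (log2 fold change -1.93 ± 0.21, adjusted p = 4.03e-06), and TCCSUP from 121 and 111 CPM to 31.1 and 33.6 CPM (-1.85 ± 0.21, adjusted p = 3.8e-06). In 253J it went from 84.2 and 92.5 CPM to 46.2 and 43.0 CPM (-0.98 ± 0.20, adjusted p = 0.000825). The effects in J82 and TCCSUP were not separated (adjusted p = 0.963), and both exceeded that in 253J (adjusted p = 0.0197 and 0.0332). RT112 held 101 and 104 CPM in control and 74.5 and 77.6 CPM with CM-1758, without overlap, but the difference of -0.43 ± 0.20 did not pass (adjusted p = 0.0903), and passed when RT112 was fitted alone (adjusted p = 0.00757) or with a replicate block in the fit over all lines (adjusted p = 0.0416).

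ZBP1, the sensor of Z-form nucleic acids, was scarce. It passed the filter only through control libraries of J82 and TCCSUP, so its calls in these lines are no independent result. J82 control libraries held 34 and 14 counts, 1.29 and 0.509 CPM, and the treated ones 0 and 0, so that it was at least 8.62-fold lower, computed against 3 counts per library (adjusted p = 0.00631). TCCSUP held 13 and 9 counts in control and 0 and 0 with CM-1758, at least 3.73-fold lower (adjusted p = 0.019). The call in TCCSUP did not hold without control replicate 1 or without either treated library. DESeq2 over all lines called neither, with adjusted p-values of 0.0788 and 0.139. In 253J and RT112 the control libraries had 0 counts, and 1 treated library of each held 6 and 3.

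The genes that transmit the signals of the sensors were described by lists written with earlier results of these data known. Over all tested genes, the shares that fell and rose were 22.4% and 28.8% in 253J, 18.5% and 24.0% in J82, 20.2% and 27.4% in RT112, and 22.1% and 32.0% in TCCSUP. Of 25 adaptors and kinases, 8 fell and 7 rose in 253J, 12 and 2 in J82, 4 and 3 in RT112, and 10 and 3 in TCCSUP, with medians of -0.07, -0.46, -0.18 and -0.17 on the log2 scale. In RT112 both of its shares lay under those of all genes, and in 253J they lay near them, at 32% falling and 28% rising. TBK1, the kinase on which the RNA and DNA pathways meet, passed in no line, with log2 fold changes from -0.21 to -0.07, and the same held for IRF3, its substrate, with -0.08 to 0.23. IRF7, the interferon-inducible relative of IRF3, rose in 253J (1.90 ± 0.33, adjusted p = 0.000355), fell in J82 (-3.03 ± 0.33, adjusted p = 1.25e-05) and in TCCSUP (-1.35 ± 0.36, adjusted p = 0.00668), and had 0 counts in all 4 RT112 libraries.

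Among the partners of TLR3 and ZBP1, TICAM1, the adaptor of TLR3, passed in RT112, where it rose, from 2.02 ± 0.593 to 7.38 ± 1.42 CPM (SD, n = 2, adjusted p = 0.000303). UNC93B1, which carries endosomal Toll-like receptors, fell in 253J, J82 and RT112 by 1.85, 1.63 and 1.32 on the log2 scale and did not pass in TCCSUP (-0.28). RIPK3, the kinase that ZBP1 engages, had 0 counts in 253J and J82, 6.08 ± 0.552 CPM in RT112 control cells without a change past the threshold (-0.38), and at most 1 count in TCCSUP control libraries against 1.81 ± 0.444 CPM with CM-1758. MLKL, the executioner of necroptosis, fell in J82 (-2.0027), RT112 (-1.25) and TCCSUP (-1.31), and NFKB1, a subunit of NF-κB, fell in all 4 lines by 0.49 to 1.72.

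Of 24 activators and inhibitors of the sensors, 15 fell and 3 rose in 253J, 13 and 1 in J82, 9 and 5 in RT112, and 17 and 3 in TCCSUP, with medians of -0.72, -0.82, -0.37 and -0.94. The falling share of this list was 37.5% to 70.8% over the lines, against 18.5% to 22.4% of all tested genes, and the rising share 4.17% to 20.8%, against 24.0% to 32.0%. TRIM25, a ubiquitin ligase that activates RIG-I, fell by 0.60 in 253J, 1.29 in J82 and 0.44 in TCCSUP on the log2 scale and stood at 0.33 in RT112 without passing. TRIM65, the ligase that acts on MDA5, fell in all 4 lines by 1.04 to 1.97. DDX60, a helicase reported to assist RIG-I, fell in 253J (-2.03), J82 (-2.62) and TCCSUP (-3.08). USP18, which removes ISG15 and dampens interferon signalling, fell in all 4 lines, from 108 ± 10.5 to 9.02 ± 4.47 CPM in J82.

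Enzymes that destroy or mask the ligands of the sensors formed a list of 14, of which 6 fell and 4 rose in 253J, 7 and 1 in J82, 6 and 2 in RT112, and 7 and 4 in TCCSUP, with medians of -0.40, -0.40, -0.28 and -0.48. Between 42.9% and 50% of the list fell in each line, against 18.5% to 22.4% of all tested genes, and 7.14% to 28.6% rose, against 24.0% to 32.0%. ADAR, which edits double-stranded RNA so that MDA5 does not bind it, fell in all 4 lines, with log2 fold changes of -0.59, -1.57, -0.43 and -1.33 in 253J, J82, RT112 and TCCSUP. RNASEH2A, a subunit of the enzyme that removes RNA from DNA, fell in all 4 by 0.59 to 1.80, and DNASE2, the lysosomal DNase, by 0.74 to 2.12. TREX1, the cytosolic DNA exonuclease, passed in J82 (-1.42, adjusted p = 0.0314) among the 4 lines.

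Other members of that list rose or moved both ways. ENPP1, which hydrolyses the product of cGAS, rose in all 4 lines, by 0.52 ± 0.15, 1.62 ± 0.16, 2.24 ± 0.17 and 6.57 ± 0.25 on the log2 scale in 253J, J82, RT112 and TCCSUP. In TCCSUP it went from 0.292 ± 0.0343 to 28.1 ± 3.89 CPM (adjusted p = 3.18e-10). SAMHD1, which depletes nucleotides and limits free DNA, rose in 253J (0.57) and RT112 (1.49) and fell in J82 (-1.51) and TCCSUP (-0.63).

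Of 26 other nucleic acid sensors, 12 fell and 3 rose in 253J, 15 and 3 in J82, 10 and 4 in RT112, and 15 and 4 in TCCSUP, with medians of -0.19, -0.48, -0.39 and -0.49. A share of 38.5% to 57.7% fell, against 18.5% to 22.4% of all tested genes, and 11.5% to 15.4% rose, against 24.0% to 32.0%. The 2′-5′ oligoadenylate synthetases, which bind double-stranded RNA and activate RNase L, fell most in J82, with log2 fold changes of -3.9985 for OAS1, -4.92 for OAS2 and -3.74 for OAS3. In RT112, OAS2 fell (-2.61, adjusted p = 0.0184), while OAS1 (-0.59) and OAS3 (0.76) did not pass. IFI16, a DNA sensor, fell in J82 (-2.33) and TCCSUP (-2.27) and rose in 253J from 0.781 ± 0.0216 to 7.43 ± 1.04 CPM (3.24 ± 0.61, adjusted p = 0.000398).

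The 12 genes of PKR and the integrated stress response changed in both directions in each line, with 3 lower and 5 higher in 253J, 5 and 2 in J82, 3 and 3 in RT112, and 6 and 3 in TCCSUP, and medians of 0.01, -0.24, 0.06 and -0.35. The shares in RT112, 25% lower and 25% higher, were near those of all tested genes, 20.2% and 27.4%, and in TCCSUP 50% were lower, against 22.1%. ATF4, the transcription factor translated when eIF2α is phosphorylated, fell as a transcript in all 4 lines, by 0.44 to 1.08. ATF3, its target, rose in all 4, by 0.88 to 3.58, and DDIT3 rose in 253J (2.60), RT112 (1.20) and TCCSUP (1.04) and fell in J82 (-0.9965). DNAJC3, an inhibitor of PKR, fell in 253J (-1.16), RT112 (-0.41) and TCCSUP (-0.51) and did not pass in J82 (0.20).

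Interferons were scarce. IFNB1, the interferon that the sensors induce first, had its highest mean in J82 control cells, at 1.17 ± 0.877 CPM against 0.243 ± 0.0396 with CM-1758 (adjusted p = 0.0306), and held at most 7 counts in every library of the other lines. Of 17 interferon and receptor genes 12 were tested, and 5 fell and 4 rose in 253J and 6 fell and 1 rose in J82. In RT112, 5 rose and the other 7 did not pass, and in TCCSUP 6 fell and the other 6 did not pass, with medians over the 4 lines of -0.45, -0.37, 0.48 and -0.64. Rising genes made up 41.7% of the list in RT112, 33.3% in 253J and 8.33% in J82, against 27.4%, 28.8% and 24.0% of all tested genes. Falling genes made up 41.7% in 253J and 50% in J82 and TCCSUP, against 22.4%, 18.5% and 22.1%. Of all tested genes, 20.2% fell in RT112 and 32.0% rose in TCCSUP, where none of this list did. STAT2 and IRF9 moved in the same direction within each line. In 253J, J82, RT112 and TCCSUP, the log2 fold change of STAT2 was 1.12, -1.85, 0.82 and -0.72 and that of IRF9 was 1.02, -2.72, 0.71 and -2.16, and all 8 changes passed.

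Set beside these values, RIGI rose where STAT2 and IRF9 rose in RT112 and fell where they fell in J82 and TCCSUP. In RT112, IFIH1 rose too, but DHX58 (-2.10), TLR3 (-2.51) and STING1 (-1.25) fell. Whether STAT2 or IRF9 has a part in the changes of the sensors was not tested. In 253J, where STAT2 and IRF9 rose, RIGI did not pass (0.34, adjusted p = 0.219) and IFIH1, DHX58, EIF2AK2, CGAS and TLR3 fell. The negative regulator SOCS1 rose in 253J (1.17) and RT112 (2.42) and fell in J82 (-1.45), and the receptor kinase TYK2 fell in J82 (-0.49) and TCCSUP (-0.88).

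**Figure D3:**
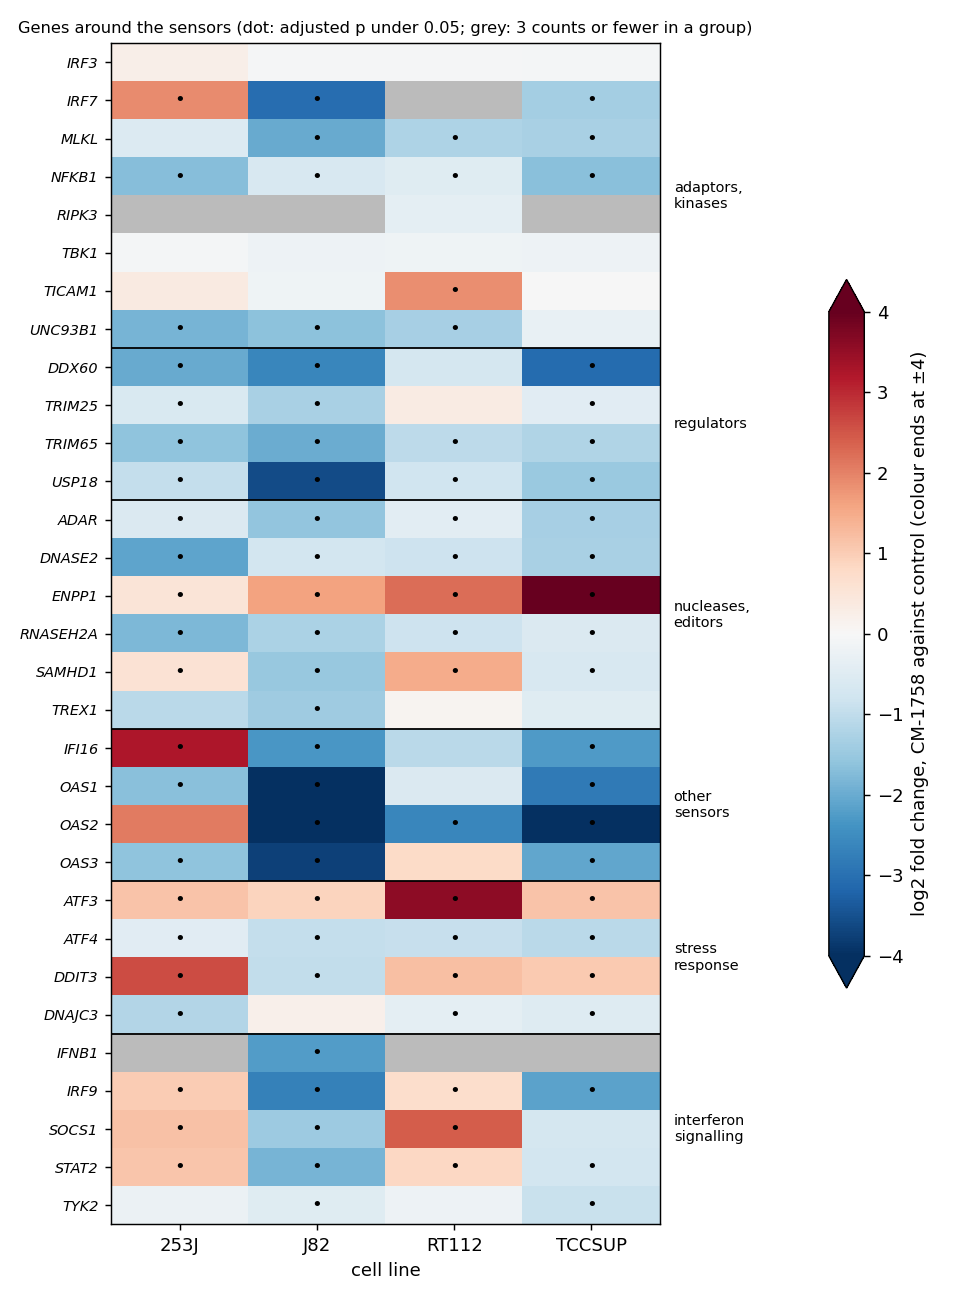
Log2 fold change of CM-1758 against control, as colour, for the named genes around the sensors in the 4 cell lines, grouped by list. Dots mark an adjusted p under 0.05, grey marks cells with 3 counts or fewer in a group, and the colour scale ends at 4 in either direction. STAT2 and IRF9 are red in 253J and RT112 and blue in J82 and TCCSUP, and ENPP1 is red in all 4 lines.

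The genes whose log2 CPM followed each sensor most closely over the 16 libraries were named by Pearson's r as a description, since these libraries share cell lines and treatment. Among the closest to RIGI were TDRD7 (r = 0.89) and PLSCR1 (0.88), and IFIH1 was closest to RNF213, UBE2L6 and PARP12 (all 0.92). EIF2AK2 was closest to PARP10 (0.98), DTX3L (0.97) and FOXM1 (0.95). DHX58 was closest to NSUN4 (0.98), ZWILCH (0.96) and NGRN (0.96) rather than to the other helicases, and had an r of 0.67 with RIGI, while IFIH1 and RIGI had 0.88.

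TLR3 lay closest to KANSL1L (0.97), SNHG25 (0.91) and CAMKK1 (0.91), and CCDC9B (0.97) and RIT1 (0.96) were among the closest to STING1. CGAS was closest to TSPAN4 (0.98), RUSC2 (0.97) and MIR503HG (0.97), and MAVS to EPPK1 (0.98), ZNF488 (0.97) and FOXO3 (0.96). ZBP1, with counts in few libraries, lay closest to HTR2B (0.94), IRF9 (0.91) and RSAD2 (0.86).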

How the data were processed

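Whole-cell RNA of 16 cultures was sequenced as ribosome-depleted, stranded libraries. The authors deposited raw counts per gene symbol, whole numbers without normalization. The submitters' processing notes name HISAT2, StringTie and GRCh37 without versions or roles, and the strand setting of the counting is not given in the sources used here, so overlapping genes may share reads. Every column was mapped to its sample by its label, and 0 columns were left over. Members and gene lists were chosen with earlier results of these data known.

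After filterByExpr over the 8 groups and TMM, all 16 libraries entered 1 quasi-likelihood fit (edgeR 4.0.16, R 4.3.3), with 8 residual degrees of freedom and a common biological coefficient of variation of 0.153. P-values were adjusted by Benjamini-Hochberg over the 21297 tested genes within each contrast. The SE of a log2 fold change was taken as its size over the root of its F value. In simulated counts for J82, 169 of 200 genes changed 4-fold were recovered, with 10 other calls among 20395 genes. These counts were drawn with the spread of each gene pooled over all groups. They cannot show how the fit behaves where the J82 libraries varied more than that. A gene at 3 counts or fewer in a group gets a bound or no fold. Libraries of a group were not duplicates, since the smallest chi-square per degree of freedom within a group was 10.9. It was largest in J82, at 67.1 in control and 46.1 with CM-1758.

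Besides the 9 members, 16 genes of the pathway were named whatever their values, and from each list the 3 with the largest mean absolute change among genes passing in at least 2 lines with a mean log2 CPM above 0. Results of some genes that these rules name are not reported here. Alternatives were RLE scaling, library size only, other filters, 7 small noncoding RNA genes left out, DESeq2 1.42.0, lines fitted alone, a replicate block and leaving out each library.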

Additional observations from a re-analysis of the deposited data

Results flagged for a closer look

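The effect of CM-1758 differed between the 4 cell lines for 8 of the 9 genes in the F test of the interaction of edgeR's quasi-likelihood fit, adjusted over all tested genes. The adjusted p was 1.13e-07 for RIGI, whose log2 fold change ran from -2.45 in J82 to 2.23 in RT112, and 3.7e-05 for IFIH1, which fell in 3 lines and rose in RT112. TLR3 had an adjusted p of 0.000441, with TCCSUP opposite to the other lines. For CGAS it was 0.00121 and for EIF2AK2 0.001, with RT112 the line with no called fall in either gene. DHX58, at 0.0161, fell in all lines but by different amounts. STING1, at 0.00697, and ZBP1, at 0.0112, include lines with 0 counts in both control libraries. ZBP1 passed the filter only through control libraries of J82 and TCCSUP. Dose and cell line cannot be told apart in these differences, and for TCCSUP neither can the medium. Among 253J, J82 and RT112, which shared a medium, the effects on RIGI differed by 4.68 on the log2 scale between RT112 and J82 (adjusted p = 2.9e-07).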

How the results depend on the processing

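With 2 libraries per group the calls rest on a spread shared over 8 groups, and a library left alone in its group is assumed to vary like the others. Of the log2 fold changes of single genes recomputed without 1 library, 114 kept direction and side of the threshold, 15 lost the call, 2 gained it and 1 turned, and under the other alternatives 276 kept both, 5 lost the call and 16 gained it. The number of genes that rose in RT112, 2, was 4 with RLE scaling, with library size only, with DESeq2 over all lines and with the replicate block, since MAVS and CGAS then passed. With the replicate block EIF2AK2 also passed in RT112, as a fall (adjusted p = 0.0416). Whether libraries with the same number belong to 1 experiment was not settled. The deviations of such libraries correlated at 0.22 (J82), 0.04 (RT112) and 0.02 (TCCSUP), while 253J shared 1 number only. The replicate block leaves no contrast among control lines, since its blocks lie within lines. In 253J, 2 genes rose with library size only. Asking for 10 counts in every library kept 6 of the 9 genes and 11984 genes in all, and left 1 gene past the study's limit in 253J, 5 falling and 3 past the limit in J82, 1 falling and 4 rising in RT112, 4 falling and 1 past the limit in TCCSUP, and 5 with effects that differed between lines. With no filter on low counts 1 gene rose in TCCSUP. Leaving out a library gave 0 to 0 rising genes in TCCSUP, 1 to 3 past the limit in RT112, and a log2 fold change of MAVS in J82 from -0.0097 to 0.11, the negative value without control replicate 3. The cause of these shifts was not tested.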
